A study of Mus musculus with 24 samples.

Results

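The genes described here are 10 genes that write, remove or read methylation of lysine 9 on histone H3 (H3K9), in mouse oocytes that were exposed to PSMPs, treated with SAHA or left as controls. They were chosen by name, as the rows for Setdb1, Ehmt1, Ehmt2, Suv39h1, Suv39h2, Kdm4a, Trim28, Cbx1, Cbx3 and Cbx5 among 55401 genes counted. The rule uses no measured value, but the names were picked with earlier results of these data known. Among them, Setdb1 passed the test in the most comparisons of groups, 4 of 7, and these comparisons share libraries. Its level was lower in oocytes exposed in culture than in their culture controls, lower under SAHA than in either control, and higher in exposed oocytes that overexpressed Hdac3 than in those exposed in culture. Trim28 was lower and Kdm4a was higher under SAHA than in con, and Trim28 and Cbx3 were lower in the culture controls than in con. Of these results, only the lower Setdb1 level under SAHA than in the culture controls passed under every alternative fit tried. The 6 remaining genes passed the test in none of the 7 comparisons of groups, in which 0% to 27.0% of all genes passed.

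RNA sequencing counts were available for 6 groups of 2 libraries, each library made from 5 oocytes. The groups are named as in the labels: PSMPs & OE-Hdac3, exposed oocytes overexpressing the histone deacetylase gene Hdac3; in vivo PSMPs, exposed in the animal; in vitro PSMPs, exposed in culture; SAHA, treated with a histone deacetylase inhibitor also known as vorinostat; con-in vitro, the controls for culture; and con, the controls. PSMPs is an abbreviation in common use for polystyrene microplastics. Strain, age, meiotic stage, dose, duration, the means of overexpression, the route by which overexpressing oocytes were exposed and the control that belongs to SAHA are not given in the sources used here, so the overexpressing oocytes were compared with both exposed groups and SAHA with both controls. Whether libraries of the same group come from different animals or cultures is not stated, so p-values cover only the spread among these libraries, which may be technical. The deposited columns of in vivo PSMPs differed by less than the sampling noise and were counted as 1 sample, with the spread taken from the other groups.

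Depth was between 6.22 M and 35.6 M counts per library, with con-in vitro at 6.22 M and 6.40 M. Between 11640 and 12843 genes were detected in the con-in vitro and con libraries and between 17722 and 20957 in the others. Every one of 17 oocyte markers held counts in every library. Their summed level, in CPM (read counts scaled to library size after TMM), was 25415 and 29583 in PSMPs & OE-Hdac3, 41447 in in vivo PSMPs, 48259 and 60688 in in vitro PSMPs, 62231 and 68006 in SAHA, 13193.5 and 14494 in con-in vitro, and 56610.5 and 56890.4 in con. The con-in vitro libraries were the lowest of all and those of PSMPs & OE-Hdac3 the next lowest. Of 20 markers of cumulus and granulosa cells, the somatic cells around the oocyte, 14 to 17 held counts in PSMPs & OE-Hdac3, 17 in in vivo PSMPs, 10 to 14 in in vitro PSMPs, 13 to 14 in SAHA, 5 to 6 in con-in vitro and 5 in con. The summed level of these somatic markers was 45.1 to 48.3 CPM in PSMPs & OE-Hdac3, 173 in in vivo PSMPs, 52.7 to 79.3 in in vitro PSMPs, 78.0 to 86.7 in SAHA, 35.8 to 101 in con-in vitro, and it was 47.5 to 70.8 in con. Inha and Fshr, for inhibin and the receptor of follicle-stimulating hormone, were at 0 in all con-in vitro and con libraries, and Amh was at 0 in all libraries other than in vivo PSMPs. The part of both marker lists, of depth and of the number of genes detected in the results that follow was not tested. Hdac3 stood at 336 and 228 CPM in PSMPs & OE-Hdac3 and at 7.17 to 37.4 CPM in the other libraries.

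Methylation of H3K9 marks silent chromatin. The SUV39H enzymes place trimethylation on repeats around centromeres, the pair GLP (Ehmt1) and G9a (Ehmt2) places mainly dimethylation in gene-rich chromatin, and SETDB1 is brought by TRIM28 (KAP1) and KRAB zinc finger proteins to retrotransposons and imprinted regions. The HP1 proteins, HP1β from Cbx1, HP1γ from Cbx3 and HP1α from Cbx5, bind the methylated tail, and KDM4A removes trimethylation. In mouse oocytes Setdb1 is known for repressing retrotransposons and supporting meiosis, maternal Trim28 for protecting imprints after fertilisation, and maternal Kdm4a for keeping H3K9 trimethylation out of active domains.

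The promoter windows of Setdb1, Trim28 and Kdm4a, the members that passed the test under SAHA, are shown because Setdb1 and Trim28 were lower and Kdm4a higher there. Each run is the 250 bases before the annotated start in RefSeq (build GRCm38.p6), written 5′ to 3′ on the strand of the gene. Capitals mark the GC box GGGCGG, searched on both strands, so that CCGCCC is the same box read on the other strand.
Setdb1, chr3:95357203-95357452, minus strand: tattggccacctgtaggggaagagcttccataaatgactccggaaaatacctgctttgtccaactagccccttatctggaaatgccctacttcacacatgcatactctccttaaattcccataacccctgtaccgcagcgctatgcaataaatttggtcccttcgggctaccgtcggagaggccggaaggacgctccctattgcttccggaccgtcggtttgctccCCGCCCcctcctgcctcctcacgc
Trim28, chr7:13023902-13024151, plus strand: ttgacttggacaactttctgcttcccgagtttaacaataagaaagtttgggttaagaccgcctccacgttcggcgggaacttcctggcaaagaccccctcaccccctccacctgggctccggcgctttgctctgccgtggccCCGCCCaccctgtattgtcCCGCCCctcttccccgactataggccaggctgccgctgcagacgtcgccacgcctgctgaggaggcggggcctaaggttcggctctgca
Kdm4a, chr4:118180044-118180293, minus strand: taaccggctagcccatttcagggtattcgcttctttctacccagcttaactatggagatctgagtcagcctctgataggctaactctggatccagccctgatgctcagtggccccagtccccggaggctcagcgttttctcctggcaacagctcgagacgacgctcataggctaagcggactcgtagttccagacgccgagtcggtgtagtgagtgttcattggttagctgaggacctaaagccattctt
The window of Setdb1 held 1 GC box, that of Trim28 held 2 and that of Kdm4a held 0. All 10 genes matched a RefSeq entry, with 14 windows in all, and 12 of the 14 held the box, against 32.7% of the 32851 windows in the table. The member windows had a median G+C content of 64.6%, against 52.4% over all windows. The Setdb1 window lies within an exon of the gene model Gm37500 on the opposite strand in the count annotation. The Trim28 window starts far inside the span that the count annotation gives to Trim28, whose first exon it places at 12999114 of chromosome 7.

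Per kilobase of exon, the measure that allows genes to be compared with each other, Trim28 had the highest median level over the 11 libraries (36.6 CPM per kb), followed by Cbx1 (32.5), Suv39h2 (25.1) and Setdb1 (21.6). That order did not hold in every group. By group means Trim28 lay above Cbx1 and Suv39h2 in PSMPs & OE-Hdac3, in vivo PSMPs and con, and below both in in vitro PSMPs (14.0 CPM per kb, with Cbx1 at 32.7), SAHA (17.2, with Cbx1 at 38.2) and con-in vitro (34.9, with Cbx1 at 58.1). In con-in vitro, Suv39h2 averaged 35.3 CPM per kb, close to Trim28, and the libraries differed in order. Trim28 lay below Cbx1 and Suv39h2 in replicate 1 (21.4, with 93.8 and 59.3) and above both in replicate 2 (48.4, with 22.3 and 11.3). Kdm4a (6.47 CPM per kb), Ehmt1 (6.44) and Cbx5 (2.26) lay in the middle. Cbx3 (0.189 CPM per kb), Ehmt2 (0.114) and Suv39h1 (0.108) were the lowest, and each held 0 counts in at least 1 con-in vitro library. A level of 3 counts, not scaled by gene length, was between 0.0773 and 0.890 CPM in these libraries. All 10 passed the filter on low counts.

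**Figure D1:**
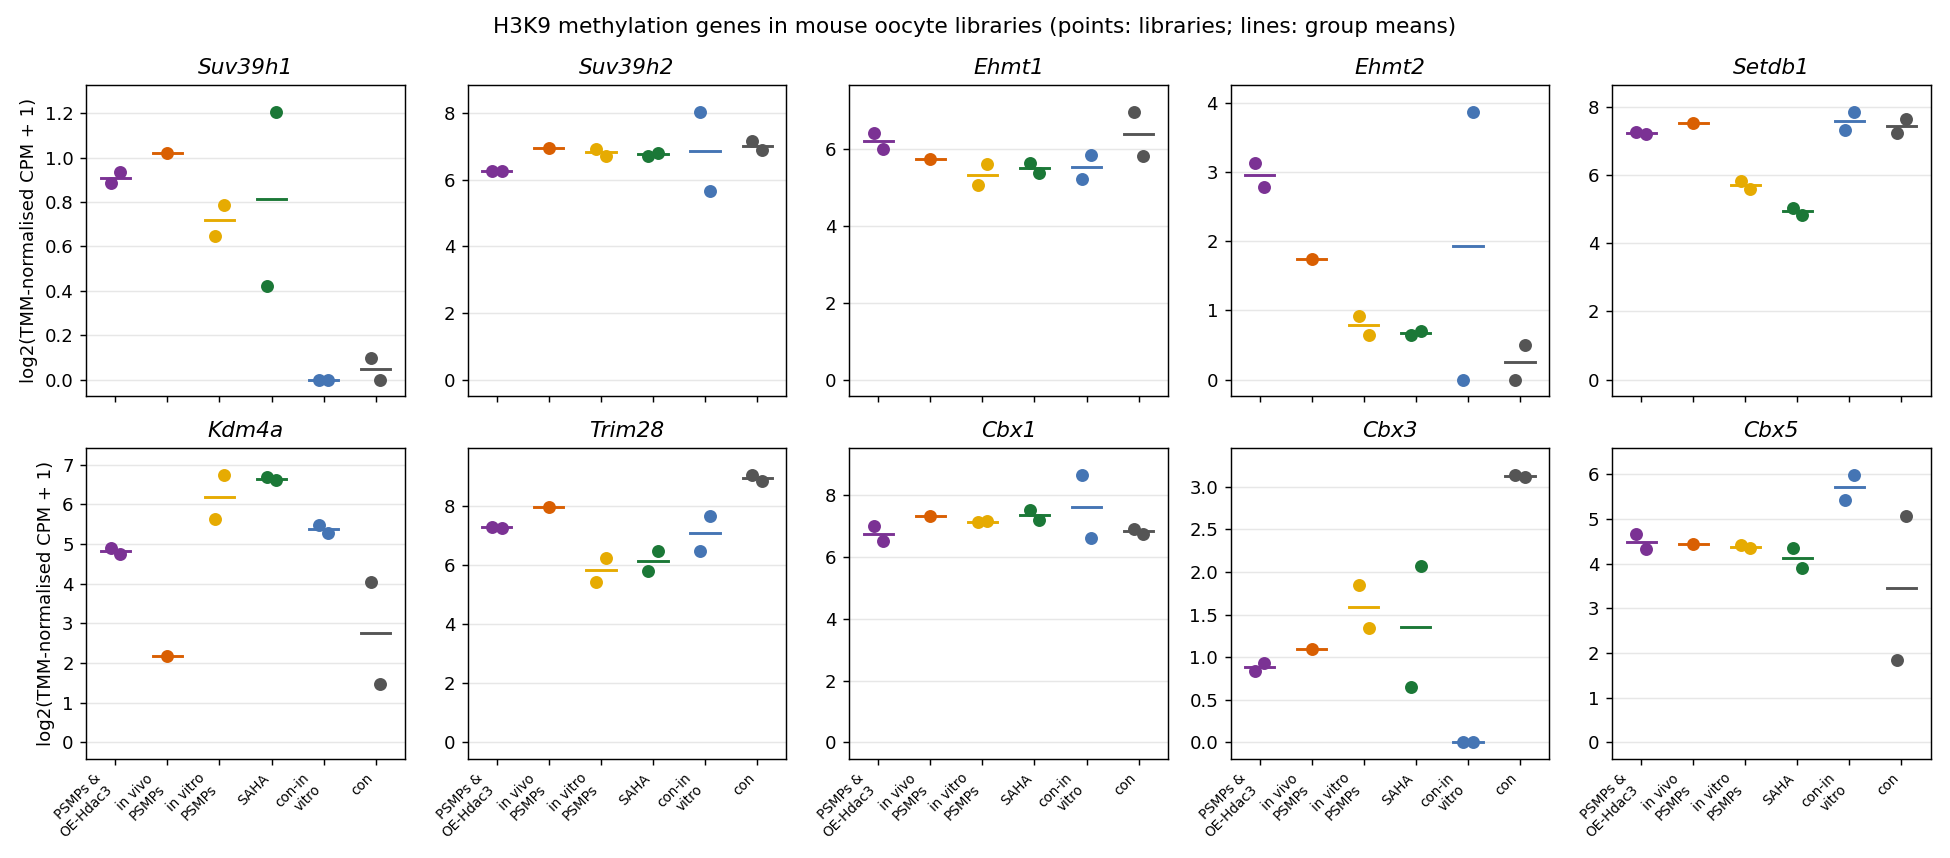
Level of each gene in every library as log2(TMM-normalised CPM + 1), with groups on the horizontal axis, points for libraries and lines for group means on that scale; in vivo PSMPs is 1 point. Setdb1 lies between 27.2 and 55.6 CPM in the in vitro PSMPs and SAHA libraries and between 146 and 230.1 CPM in all others.

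Of the SUV39H genes, Suv39h2 carried nearly all of the counts. Suv39h2 (ENSMUSG00000026646.16, mm10 chromosome 2, 3455815 to 3475031) had 75.4 and 75.5 CPM in PSMPs & OE-Hdac3, 123 CPM in the in vivo PSMPs sample, 119.9 and 104 CPM in in vitro PSMPs, 104 and 111 CPM in SAHA, 262 and 49.7 CPM in con-in vitro, and 142 and 117 CPM in con. The con-in vitro libraries were at once the highest and the lowest of all, and every other library fell between them. Without con-in vitro replicate 2 the gene was called lower in in vitro PSMPs (log2 -1.23, adjusted p = 0.0453 by edgeR's quasi-likelihood test) and in SAHA (log2 -1.28, adjusted p = 0.0346) than in the con-in vitro library that remained. Without con-in vitro replicate 1 the sign turned, to log2 1.17 in in vitro PSMPs and log2 1.11 in SAHA, neither of which was called. In the fit to all libraries these values were log2 -0.48 ± 0.62 (SE, adjusted p = 0.621) and log2 -0.53 ± 0.62 (adjusted p = 0.556). Exons of Suv39h2 share 357 bases, or 8.10% of its exon length, with Dclre1c on the opposite strand, and the kit does not mark strand.

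Suv39h1 (ENSMUSG00000039231.18, mm10 chromosome X, 8061171 to 8074760) held 13 and 10 counts in PSMPs & OE-Hdac3, 40 in in vivo PSMPs, 7 and 9 in in vitro PSMPs, 6 and 23 in SAHA, 0 and 0 in con-in vitro, and 2 and 0 in con. It was thus seen in every exposed or treated library and in 1 of the 4 control libraries. Detection of all genes was divided the same way. It was 11640 to 12843 genes in the con-in vitro and con libraries and 17722 to 20957 in the others. What part this had in the Suv39h1 counts was not tested. The ratio of in vivo PSMPs to con was 34.9, with a 95% counting interval of 9.04 to 298 (adjusted p = 0.0964), and that of SAHA to con was 27.8 with an interval of 7.03 to 240.4 (adjusted p = 0.0582). Against con-in vitro, where it was at 0, Suv39h1 was at least 1.52-fold higher in in vitro PSMPs (adjusted p = 0.161) and at least 1.93-fold higher in SAHA (adjusted p = 0.123), bounds set by 3 counts over the group. None of these passed the test in the reported fit. With the in vivo PSMPs columns as 2 libraries, in vivo PSMPs and SAHA were both called higher than con (adjusted p = 0.0281 and adjusted p = 0.0274). edgeR's newer quasi-likelihood method called both as well, with adjusted p = 0.0148 for SAHA. The antisense gene model Gm14820 covers 767 bases of the Suv39h1 exons, 14.6% of their length, and held 140 to 3984 counts per library, so reads of the pair cannot be told apart where they overlap. Within each library Suv39h2 made up 99.0% to 100% of the counts per kb of the pair.

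GLP and G9a work as a heterodimer, and Ehmt1 was far the more abundant transcript of the pair. Ehmt1 (ENSMUSG00000036893.17, mm10 chromosome 2, 24789928 to 24919614) had 85.2 and 62.8 CPM in PSMPs & OE-Hdac3, 52.3 CPM in the in vivo PSMPs sample, 32.4 and 47.9 CPM in in vitro PSMPs, 48.8 and 40.5 CPM in SAHA, 36.2 and 56.3 CPM in con-in vitro, and 125 and 55.2 CPM in con. The con libraries differed from each other more than most groups did. The largest differences were log2 -1.01 ± 0.51 for SAHA against con (adjusted p = 0.173), log2 -0.96 ± 0.51 for con-in vitro against con (adjusted p = 0.209) and log2 0.88 ± 0.51 for PSMPs & OE-Hdac3 against in vitro PSMPs (adjusted p = 0.384). Without con replicate 2, the lower of the con libraries, Ehmt1 was called lower in SAHA (log2 -1.68, adjusted p = 0.0198) and in con-in vitro (log2 -1.61, adjusted p = 0.0214) than in con.

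Ehmt2 (ENSMUSG00000013787.15, mm10 chromosome 17, 34898469 to 34914052) held 120 and 65 counts in PSMPs & OE-Hdac3, 91 in in vivo PSMPs, 11 and 7 in in vitro PSMPs, 10 and 11 in SAHA, 0 and 50 in con-in vitro, and 0 and 16 in con. In CPM these were 7.81 and 5.91 in PSMPs & OE-Hdac3, 2.35 in in vivo PSMPs, 0.892 and 0.565 in in vitro PSMPs, 0.566 and 0.626 in SAHA, 0 and 13.7 in con-in vitro, and 0 and 0.412 in con. Con-in vitro lay above con (log2 4.98 ± 2.21, adjusted p = 0.138) without passing in the reported fit. DESeq2's Wald test (log2 5.22, adjusted p = 0.0173) and edgeR's newer quasi-likelihood method (log2 4.87, adjusted p = 0.0186) called it. Leaving out 1 library moved the value to between log2 -5.09 and log2 9.67. PSMPs & OE-Hdac3 lay above in vitro PSMPs in both libraries (log2 3.22 ± 2.04, adjusted p = 0.434), which passed only when those groups were fitted alone (log2 3.21, adjusted p = 0.00384). Its share of the pair, which does not depend on scaling between libraries, was 11.9% and 12.2% of counts per kb in PSMPs & OE-Hdac3, 6.22% in in vivo PSMPs, 3.91% and 1.72% in in vitro PSMPs, 1.68% and 2.23% in SAHA, 0% and 26.4% in con-in vitro, and 0% and 1.09% in con. In con-in vitro replicate 1, 0 of 122 counts of the pair were from Ehmt2, which allows a share of counts of up to 2.98% by the exact binomial interval.

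Setdb1 (ENSMUSG00000015697.14, mm10 chromosome 3, 95323525 to 95357202) was called in 4 of the 7 comparisons, more than any other member. Those 4 comparisons share libraries, and each called 4.83% to 27.0% of all genes. How many of all genes were called in as many comparisons was not counted. Setdb1 had 152 and 146 CPM in PSMPs & OE-Hdac3, 181 CPM in the in vivo PSMPs sample, 55.6 and 47.3 CPM in in vitro PSMPs, 32.0 and 27.2 CPM in SAHA, 158 and 230.1 CPM in con-in vitro, and 148 and 198 CPM in con. In vivo PSMPs, con-in vitro and con overlapped. PSMPs & OE-Hdac3 overlapped with con and lay below in vivo PSMPs and con-in vitro, and in vitro PSMPs and SAHA lay below all of these. Fewer contributing oocytes and less RNA per oocyte cannot be told apart in such pools.

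Setdb1 averaged 51.5 ± 5.85 CPM in in vitro PSMPs and 194 ± 50.8 CPM in con-in vitro (SD, n = 2 each), a log2 change of -1.91 ± 0.35 (SE, adjusted p = 0.00737 by edgeR's quasi-likelihood test with Benjamini-Hochberg adjustment over all genes). It was the only member of the 10 called in that comparison, where 15.4% of all genes were called and 6.78% were lower. The call was lost without in vitro PSMPs replicate 2 (log2 -1.80, adjusted p = 0.0599), with only these groups fitted (log2 -1.62, adjusted p = 0.0823) and when libraries were scaled by their totals instead of TMM (log2 -0.92, adjusted p = 0.101), which moves the median of all genes in this comparison to 1.70, against 0.71 with TMM. The Setdb1 value lay below the median of all genes under both scalings.

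In SAHA, Setdb1 averaged 29.6 ± 3.34 CPM (SD, n = 2), with con-in vitro at 194 ± 50.8 CPM and con at 173 ± 35.8 CPM (SD, n = 2 each). The change was log2 -2.71 ± 0.37 against con-in vitro (adjusted p = 0.00122) and log2 -2.55 ± 0.36 against con (adjusted p = 0.00472). Called genes made up 19.8% of all genes against con-in vitro, 8.14% in the downward direction, and 27.0% against con, 6.75% downward. The call against con-in vitro held under every alternative tried (log2 -2.96 to -2.01). The call against con was lost without SAHA replicate 1 (log2 -2.67, adjusted p = 0.0509), without SAHA replicate 2 (log2 -2.44, adjusted p = 0.0543) and with only these groups fitted (log2 -2.60, adjusted p = 0.0808).

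In PSMPs & OE-Hdac3, Setdb1 averaged 149 ± 4.23 CPM, against 51.5 ± 5.85 CPM in in vitro PSMPs (SD, n = 2 each). It was higher there by log2 1.53 ± 0.35 (adjusted p = 0.0411), where 4.83% of all genes were called and 1.85% were higher. The libraries of these groups did not overlap. The call was lost without PSMPs & OE-Hdac3 replicate 1 (log2 1.41, adjusted p = 0.298), without PSMPs & OE-Hdac3 replicate 2 (log2 1.44, adjusted p = 0.275), without in vitro PSMPs replicate 1 (log2 1.66, adjusted p = 0.128), without in vitro PSMPs replicate 2 (log2 1.42, adjusted p = 0.236) and with no filter on low counts (log2 1.54, adjusted p = 0.0556). Against in vivo PSMPs the difference was log2 -0.28 ± 0.41 (adjusted p = 0.898).

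In vivo PSMPs, with 181 CPM, did not differ detectably from con in Setdb1 (log2 0.07 ± 0.42, adjusted p = 0.992). The effect in culture minus the effect in the animal was log2 -1.98 ± 0.53 (adjusted p = 0.0444), a difference that 11.3% of all genes passed, 4.87% upward and 6.40% downward. The call was lost in 7 of 19 alternatives: with no filter on low counts (adjusted p = 0.078), with library totals (adjusted p = 0.175), with only these groups fitted (adjusted p = 0.282) and without con replicate 1, con-in vitro replicate 2 or either in vitro PSMPs library (adjusted p = 0.0563 to 0.128). Exons of Setdb1 share 75 bases with Cers2 and 249 bases with Gm37500, both on the opposite strand.

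Kdm4a (ENSMUSG00000033326.15, mm10 chromosome 4, 118136957 to 118180043), the demethylase gene, had 28.6 and 25.7 CPM in PSMPs & OE-Hdac3, 3.51 CPM in the in vivo PSMPs sample, 48.3 and 106 CPM in in vitro PSMPs, 102 and 96.3 CPM in SAHA, 43.6 and 37.4 CPM in con-in vitro, and 15.4 and 1.78 CPM in con. The SAHA libraries and in vitro PSMPs replicate 2 were the highest, and con replicate 2 and in vivo PSMPs the lowest. Kdm4a averaged 99.2 ± 4.09 CPM in SAHA and 8.57 ± 9.60 CPM in con (SD, n = 2 each), higher by log2 3.54 ± 0.90 (adjusted p = 0.0228), where 20.2% of all genes were higher. The size rested on the con libraries, at log2 5.80 without con replicate 1 and log2 2.50 without con replicate 2. The call was lost without SAHA replicate 1 (log2 3.49, adjusted p = 0.0799), without SAHA replicate 2 (log2 3.58, adjusted p = 0.0759) and with only these groups fitted (log2 3.41, adjusted p = 0.139).

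The other comparisons of Kdm4a did not pass in the reported fit. DESeq2's Wald test called con-in vitro above con (log2 2.30, adjusted p = 0.03). With only the compared groups fitted, edgeR called SAHA above con-in vitro (log2 1.63, adjusted p = 0.0432). It also called PSMPs & OE-Hdac3 below in vitro PSMPs (log2 -1.48, adjusted p = 0.0228). In the reported fit, in vivo PSMPs lay below con by log2 -1.29 ± 1.07. SAHA against con-in vitro gave log2 1.29 ± 0.83 (adjusted p = 0.286), in vitro PSMPs against con-in vitro gave log2 0.93 ± 0.83 (adjusted p = 0.455) and con-in vitro against con gave log2 2.24 ± 0.86 (adjusted p = 0.0906). PSMPs & OE-Hdac3 lay below in vitro PSMPs (log2 -1.51 ± 0.84, adjusted p = 0.367) and above in vivo PSMPs (log2 2.95 ± 1.18, adjusted p = 0.306) without passing.

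The ratio of Setdb1 to Kdm4a in counts per kb, which no scaling between libraries can change, was 4.49 and 4.79 in PSMPs & OE-Hdac3, 43.7 in in vivo PSMPs, 0.971 and 0.376 in in vitro PSMPs, 0.264 and 0.239 in SAHA, 3.06 and 5.19 in con-in vitro, and 8.12 and 94.2 in con. Kdm4a was thus the more abundant of the pair in the SAHA libraries and in in vitro PSMPs replicate 2. In in vitro PSMPs replicate 1 the pair was nearly equal, with Setdb1 at 8.11 and Kdm4a at 8.36 CPM per kb. Setdb1 was the more abundant in the rest. The pair was picked after its values were seen, and the ratio was given no test.

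**Figure D2:**
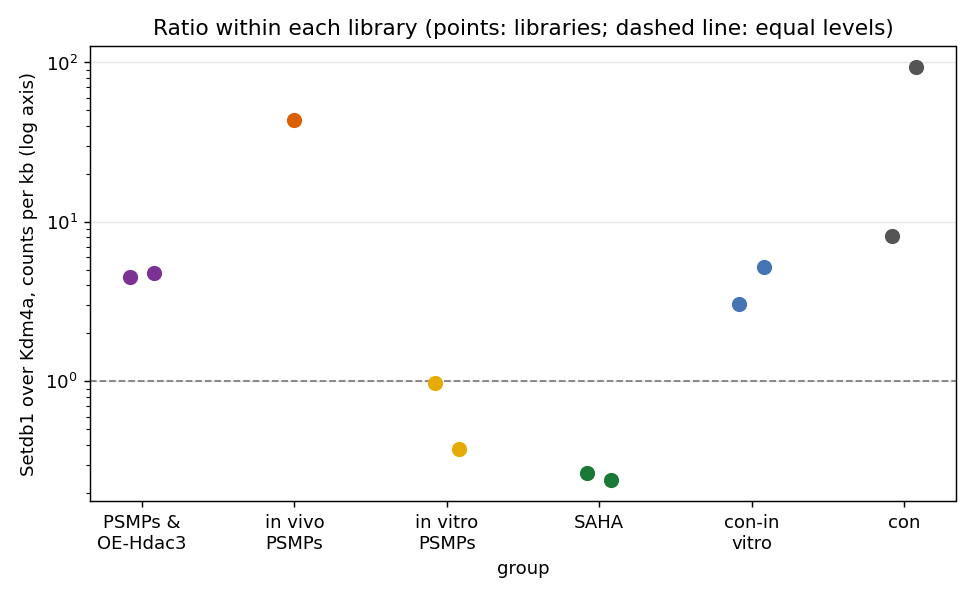
Ratio of Setdb1 to Kdm4a in counts per kb within each library, on a log axis, with groups on the horizontal axis, 1 point per library and a dashed line at equal levels. The in vitro PSMPs and SAHA libraries lie below 1, between 0.239 and 0.971, and all others lie above it, between 3.06 and 94.2.

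Trim28 (ENSMUSG00000005566.14, mm10 chromosome 7, 12999114 to 13031035), the corepressor gene, had 157 and 152 CPM in PSMPs & OE-Hdac3, 251 CPM in the in vivo PSMPs sample, 41.8 and 74.2 CPM in in vitro PSMPs, 54.5 and 88.8 CPM in SAHA, 89.0 and 201 CPM in con-in vitro, and 533 and 461 CPM in con. The con libraries were above all others. Trim28 averaged 71.7 ± 24.2 CPM in SAHA and 497 ± 51.5 CPM in con (SD, n = 2 each), lower by log2 -2.79 ± 0.49 (adjusted p = 0.00945). That call was lost without SAHA replicate 1 (log2 -2.48, adjusted p = 0.0608), without SAHA replicate 2 (log2 -3.19, adjusted p = 0.0564) and with only these groups fitted (log2 -2.86, adjusted p = 0.0825). Against con-in vitro, SAHA gave log2 -1.02 ± 0.47 (adjusted p = 0.148).

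The controls themselves differed in Trim28. It averaged 145 ± 79.4 CPM in con-in vitro, against 497 ± 51.5 CPM in con (SD, n = 2 each), lower by log2 -1.78 ± 0.48 (adjusted p = 0.0282), where 25.1% of all genes were called and 10.5% were lower. Without con-in vitro replicate 1 the difference was log2 -1.30 (adjusted p = 0.101), and without con-in vitro replicate 2 it was log2 -2.48 (adjusted p = 0.0155). In vitro PSMPs lay below con-in vitro by log2 -1.32 ± 0.47 (adjusted p = 0.0891), PSMPs & OE-Hdac3 lay above in vitro PSMPs by log2 1.41 ± 0.47 (adjusted p = 0.134) and in vivo PSMPs lay below con by log2 -0.99 ± 0.59 (adjusted p = 0.341), none of which passed. Setdb1 and Trim28 were thus both called lower in SAHA than in con. Against con-in vitro, only Setdb1 was called lower in SAHA.

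Of the HP1 genes, Cbx1 was the most abundant in every library. Cbx1 (ENSMUSG00000018666.13, mm10 chromosome 11, 96789127 to 96808640) had 127 and 89.5 CPM in PSMPs & OE-Hdac3, 159 CPM in the in vivo PSMPs sample, 139 and 140.5 CPM in in vitro PSMPs, 182 and 144 CPM in SAHA, 401 and 95.4 CPM in con-in vitro, and 118 and 106 CPM in con. The con-in vitro libraries spanned nearly the whole range, as they did for Suv39h2. No comparison passed. Without con-in vitro replicate 2, Cbx1 was called lower in in vitro PSMPs (log2 -1.52, adjusted p = 0.0299) and in SAHA (log2 -1.30, adjusted p = 0.0438) than in the con-in vitro library that remained, and higher in that library than in con (log2 1.84, adjusted p = 0.00972). Without con-in vitro replicate 1 all 3 signs turned, to log2 0.55 in in vitro PSMPs and log2 0.77 in SAHA against con-in vitro and log2 -0.23 in con-in vitro against con, with no call. The values in the fit to all libraries were log2 -0.83 ± 0.57 (adjusted p = 0.333), log2 -0.60 ± 0.57 (adjusted p = 0.463) and log2 1.15 ± 0.57 (adjusted p = 0.182).

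Cbx5 (ENSMUSG00000009575.14, mm10 chromosome 15, 103191544 to 103239816) had 24.3 and 19.1 CPM in PSMPs & OE-Hdac3, 20.8 CPM in the in vivo PSMPs sample, 20.3 and 19.3 CPM in in vitro PSMPs, 19.3 and 13.9 CPM in SAHA, 41.8 and 62.6 CPM in con-in vitro, and 2.61 and 32.7 CPM in con. The exposed and treated libraries lay close together, the con-in vitro libraries above them, and the con libraries on either side. Its largest differences were log2 -1.65 ± 0.96 for SAHA against con-in vitro (adjusted p = 0.240) and log2 1.56 ± 0.96 for con-in vitro against con (adjusted p = 0.282), which did not pass. Without con replicate 2, Cbx5 was called higher than in con in in vivo PSMPs (log2 2.97, adjusted p = 0.0184), in SAHA (log2 2.47, adjusted p = 0.0179) and in con-in vitro (log2 4.14, adjusted p = 0.00214). With both con libraries the SAHA value was log2 -0.09 ± 0.94 (adjusted p = 0.973).

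Cbx3 (ENSMUSG00000029836.15, mm10 chromosome 6, 51470360 to 51483704) held 12 and 10 counts in PSMPs & OE-Hdac3, 44 in in vivo PSMPs, 32 and 19 in in vitro PSMPs, 10 and 56 in SAHA, 0 and 0 in con-in vitro, and 225 and 297 in con. It averaged 7.73 ± 0.116 CPM in con (SD, n = 2) and was at least 18.1-fold lower in con-in vitro (adjusted p = 0.0182), a bound set by 3 counts over that group. Con-in vitro was the shallowest group, with 6.22 M and 6.40 M counts. With only the controls fitted, the call was lost (adjusted p = 0.262). Against con-in vitro, Cbx3 was at least 4.84-fold higher in in vitro PSMPs (adjusted p = 0.0585) and at least 4.39-fold higher in SAHA (adjusted p = 0.0535). Both missed the threshold and passed under 5 alternatives, among them DESeq2's Wald test (adjusted p = 0.0151 and adjusted p = 0.0155). In vivo PSMPs lay below con by log2 -2.76 ± 1.63 (adjusted p = 0.339) and SAHA below con by log2 -2.04 ± 1.20 (adjusted p = 0.245). Cbx3 has 8 processed pseudogenes in the table, the highest with 12 counts in a library, and reads could be split among them.

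Within the libraries, Cbx1 made up 91.3% and 90.2% of the HP1 counts per kb in PSMPs & OE-Hdac3, 93.7% in in vivo PSMPs, 92.4% and 93.2% in in vitro PSMPs, 95.02% and 94.2% in SAHA, 95.3% and 76.3% in con-in vitro, and 94.5% and 83.4% in con. The low values of con-in vitro replicate 2 and con replicate 2 went with the highest shares of Cbx5, at 23.7% and 12.3%. Cbx3 reached 4.47% and 4.31% in con and was at most 1.49% elsewhere.

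**Figure D3:**
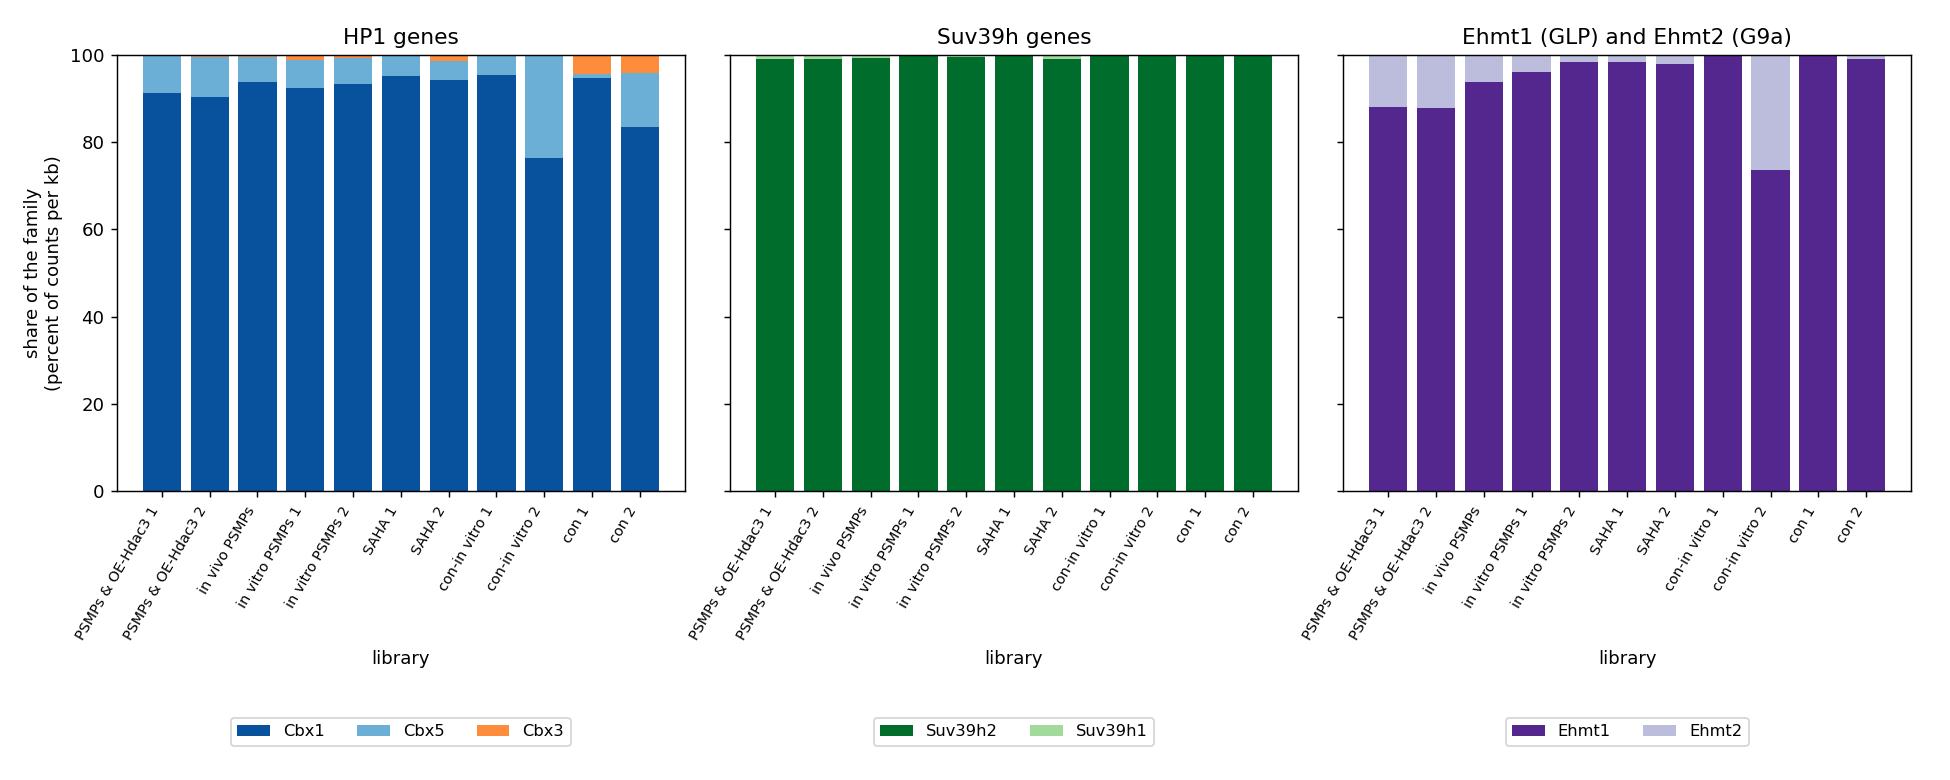
Share of each gene in the counts per kb of its family, in percent, with 1 stacked bar per library. Cbx1 holds at least 76.3% of the HP1 genes, Suv39h2 at least 99.0% of the Suv39h pair and Ehmt1 at least 73.6% of the GLP and G9a pair, with con-in vitro replicate 2 lowest for Cbx1 and Ehmt1.

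Counted by comparison, in vitro PSMPs against con-in vitro called 0 members higher and 1 lower, and the median log2 change of the 10 was -0.65, against 0.71 over 16736 genes. SAHA against con called 1 higher and 2 lower (median -0.18, against 0.59 over all genes), and SAHA against con-in vitro 0 higher and 1 lower (median -0.57, against 0.66 over all genes). PSMPs & OE-Hdac3 against in vitro PSMPs called 1 higher and 0 lower (median 0.28, against 0.09 over all genes), and con-in vitro against con 0 higher and 2 lower (median 0.22, against 0 over all genes). With 10 members, 1 call is 10%. Of all genes, in vitro PSMPs against con-in vitro called 8.57% higher and 6.78% lower. SAHA called 20.2% higher and 6.75% lower against con, and 11.7% higher and 8.14% lower against con-in vitro. PSMPs & OE-Hdac3 against in vitro PSMPs called 1.85% higher and 2.98% lower. For con-in vitro against con the shares were 14.7% higher and 10.5% lower. Whether the members differ from all genes was not tested. In vivo PSMPs against con called 0 of the 10, where 4.88% of all genes were called (4.59% higher and 0.287% lower), with a median of -0.0028, against 0.25 over all genes. PSMPs & OE-Hdac3 against in vivo PSMPs called 0 members and, by edgeR's quasi-likelihood test, 0 genes of any kind (percent called 0). At an unadjusted p under 0.05 there were 2407 genes in that comparison, and DESeq2 called 531 higher and 339 lower, with 0 of the members among them. Comparisons that share a group, such as those with con-in vitro, share its libraries. Member medians that involve con-in vitro did not keep their sign. For in vitro PSMPs and SAHA against it they were 0.03 and 0.22 without con-in vitro replicate 1. Without replicate 2 they were -0.23 and -0.0043, and with library totals 0.37 and 0.17. For con-in vitro against con the median was -0.45 without con-in vitro replicate 1 and -0.72 without replicate 2.

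**Figure D4:**
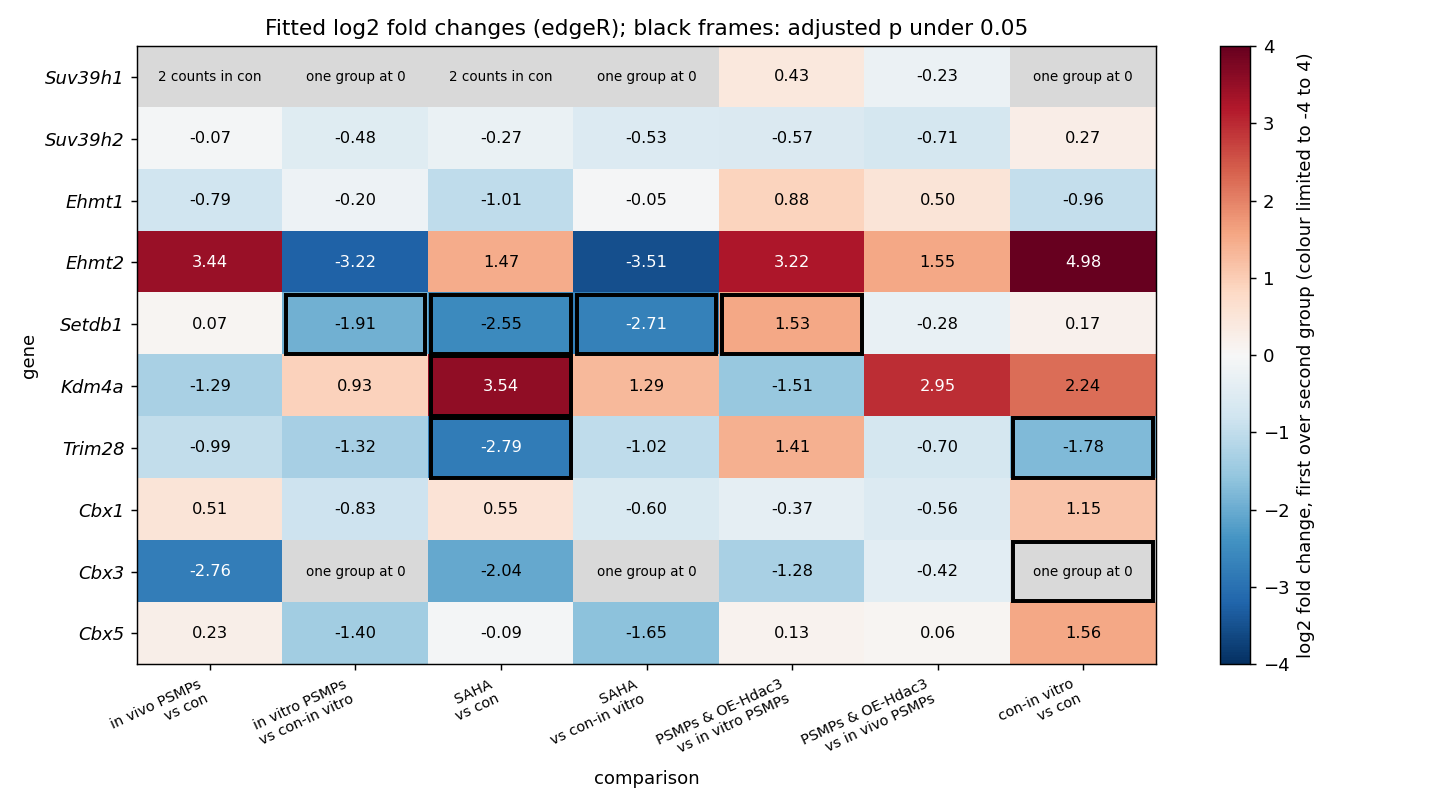
Fitted log2 fold change of each gene (vertical axis) in each comparison of groups (horizontal axis), first-named group over second, with black frames where the adjusted p of edgeR's quasi-likelihood test was under 0.05. Grey cells have 3 or fewer counts in a group and no fitted value is shown; Setdb1 has 4 of the 8 frames, Trim28 has 2, and Kdm4a and Cbx3 have 1 each.

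Beyond the 10 genes, 38 other genes of the pathway were followed, in lists for further H3K9 methyltransferases and their partners (8), H3K9 demethylases (10), the HUSH silencing complex (4) and heterochromatin partners (16), of which 37 were measured. In vitro PSMPs against con-in vitro called 2 of the 37 higher and 6 lower, where 8.57% of all genes were higher and 6.78% lower. Dppa3, which protects the maternal genome from demethylation, had 3357 and 3944 CPM in in vitro PSMPs, against 495 and 186 CPM in con-in vitro (log2 3.42 ± 0.45, adjusted p = 0.00145). Zfp57, a KRAB zinc finger protein that brings TRIM28 to imprinted regions, had 597 and 443 CPM in in vitro PSMPs, against 32.3 and 12.6 CPM in con-in vitro (log2 4.54 ± 0.60, adjusted p = 0.00153). Uhrf1, a reader of H3K9 methylation and of hemimethylated DNA, had 284 and 351 CPM in in vitro PSMPs, against 8920.0 and 6370.2 CPM in con-in vitro (log2 -4.59 ± 0.34, adjusted p = 9.67e-05). Prdm16, an H3K9 methyltransferase gene (log2 -4.19 ± 0.77, adjusted p = 0.00735), and Trim24, a relative of Trim28 (log2 -2.93 ± 0.73, adjusted p = 0.0277), were lower as well.

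Several of these genes also differed between the controls. Against con, con-in vitro called 7 of the 37 higher and 3 lower, where 14.7% of all genes were higher and 10.5% lower, with Uhrf1 higher by log2 4.07 ± 0.33 (adjusted p = 0.000126), Prdm16 higher by log2 4.84 ± 0.79 (adjusted p = 0.0033) and Dppa3 lower by log2 -3.07 ± 0.44 (adjusted p = 0.00187). The HUSH gene Mphosph8 was higher too (log2 2.64 ± 0.40, adjusted p = 0.00232), and the demethylase genes Kdm1a (log2 -2.03 ± 0.47, adjusted p = 0.0154) and Kdm3a (log2 -3.12 ± 0.91, adjusted p = 0.0341) were lower. Uhrf1 stood at 450.1 and 458 CPM in con. Setdb1, in contrast, did not differ detectably between con-in vitro and con (log2 0.17 ± 0.34, adjusted p = 0.845).

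SAHA called 5 of the 37 higher and 3 lower against con, where 20.2% of all genes were higher and 6.75% lower. Against con-in vitro it called 2 higher and 6 lower, where 11.7% of all genes were higher and 8.14% lower. Against con, Mphosph8 had 621 and 492 CPM in SAHA and 41.4 and 65.0 CPM in con (log2 3.39 ± 0.41, adjusted p = 0.00315). Zfp57 had 454 and 294 CPM in SAHA and 15.4 and 33.6 CPM in con (log2 3.93 ± 0.58, adjusted p = 0.0057). The demethylase gene Kdm4c had 1.30 and 1.42 CPM in SAHA and 0 counts in con, at least 30.7-fold higher (adjusted p = 0.0132). Lower against con were Kdm1a (log2 -2.44 ± 0.48, adjusted p = 0.0117), the HUSH partner gene Morc2a (log2 -3.10 ± 0.87, adjusted p = 0.0301) and Daxx, a chaperone of histone H3.3 (log2 -1.57 ± 0.46, adjusted p = 0.0349). Against con-in vitro, Dppa3 (log2 3.44 ± 0.45) and Zfp57 (log2 4.06 ± 0.59) were higher, and Uhrf1 (log2 -4.55 ± 0.34), Trim24 (log2 -3.35 ± 0.74) and Prdm16 (log2 -3.08 ± 0.73) were lower.

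PSMPs & OE-Hdac3 against in vitro PSMPs called 0 of the 37 higher and 2 lower, where 1.85% of all genes were higher and 2.98% lower. Zfp57 had 56.4 and 66.2 CPM in PSMPs & OE-Hdac3, against 597 and 443 CPM in in vitro PSMPs (log2 -3.08 ± 0.56, adjusted p = 0.0204), and the chromatin remodeller gene Hells had 30.4 and 28.7 CPM, against 218 and 269.9 CPM (log2 -3.04 ± 0.65, adjusted p = 0.034). In vivo PSMPs against con called 1 higher and 0 lower, where 4.59% of all genes were higher and 0.287% lower. Kdm4c had 1.01 CPM in in vivo PSMPs and 0 counts in con, at least 22.7-fold higher (adjusted p = 0.0464). PSMPs & OE-Hdac3 against in vivo PSMPs called 0 in either direction. The effect in culture minus the effect in the animal was called for 2 higher (Dppa3 and Zfp57) and 3 lower (Uhrf1, Prdm16 and Trim24), where 4.87% of all genes were higher and 6.40% lower.

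By the correlation of log2(CPM + 1) over the 11 libraries, among about 7150 named genes with a mean of at least 10 CPM, the gene most like Setdb1 was Phf23 (Pearson r = 0.986). The gene most like Trim28 was Nup62 (r = 0.987), that most like Kdm4a was Pias1 (r = 0.980) and that most like Cbx3 was Gle1 (r = 0.949). The points share groups and library scaling, and 162, 127, 51 and 16 of the candidates reached an r over 0.9 with Setdb1, Trim28, Kdm4a and Cbx3, so these names are a description of 11 libraries.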

How the data were processed

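Counts per gene in mouse oocytes were used as deposited by the authors, for 55401 genes of mm10 in 12 RNA columns. Per the labels' protocols, full-length cDNA was amplified with a single-cell kit and tagged by a transposase, which does not mark strand. The submitters' processing notes name Bowtie2 2.2.5, deepTools 3.5.1, DESeq2, fastp 0.12.4, featureCounts, HISAT2, Picard and SAMtools, without roles. H4K16 acetylation libraries of the series were not analysed here. Exon lengths in the deposited table gave levels per kb.

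Between the columns of in vivo PSMPs, chi-square per degree of freedom was 0.444 over genes with at least 20 counts (15.6% of them equal), below counting noise and below the 16.5 to 384 of the other groups. They were merged to a rounded mean, which left 11 libraries. The tools were edgeR 4.0.16, DESeq2 1.42.0 and limma 3.58.1 under R 4.3.3. edgeR's expression filter (minimum count 10) kept 16736 genes. TMM factors ranged between 0.542 and 1.57. A single fit with a coefficient per group, robust quasi-likelihood dispersion and 5 residual degrees of freedom (biological coefficient of variation 71.9%) was tested by F test, with Benjamini-Hochberg adjustment over all genes and a threshold of 0.05. Scripts were tested on simulated data. An exact permutation test of 2 libraries against 2 cannot go below p = 0.333 and was not used. Bounds for genes at 0 use a floor of 3 counts over the group, and intervals (exact binomial or Poisson, 95%) cover counting error only.

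The members and lists were chosen with earlier results of these data known. Besides the members, the text names up to 3 genes of smallest p per direction among called genes of the other lists, the best correlated named gene per called member, and overlapping genes or pseudogenes with counts. Promoter windows came from RefSeq (GRCm38.p6). Alternatives were another filter, no filter, DESeq2's size factors or Wald test, library totals, mitochondrial genes left out, a replicate block, only the compared groups, unmerged in vivo PSMPs columns and each column left out. A filter on 11 merged libraries and edgeR's newer quasi-likelihood method were added after seeing the data.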

Additional observations from a re-analysis of the deposited data

Results flagged for a closer look

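Setdb1 differed between the routes of exposure. The effect of PSMPs in culture minus the effect in the animal was log2 -1.98 ± 0.53 (adjusted p = 0.0444 by edgeR's quasi-likelihood test), with in vitro PSMPs at 55.6 and 47.3 CPM against con-in vitro at 158 and 230.1 CPM, and in vivo PSMPs at 181 CPM against con at 148 and 198 CPM. The in vivo PSMPs value is 1 sample. The difference kept its sign under every alternative tried (log2 -2.23 to -1.30), and its adjusted p lay between 0.00307 and 0.282. It was not called with no filter on low counts, with library totals, with only these groups fitted, without con replicate 1 (adjusted p = 0.0563), without con-in vitro replicate 2 (adjusted p = 0.0605), without in vitro PSMPs replicate 1 (adjusted p = 0.0909) or without in vitro PSMPs replicate 2 (adjusted p = 0.128).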

How the results depend on the processing

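Of 1232 values of the members under the alternatives, 26 lost a call, 59 gained one and 56 values called in neither fit changed sign. The sign turned with a call in 2. Cbx5 in SAHA against con gave log2 2.47 without con replicate 2 and log2 -0.98 without con replicate 1, and Suv39h2 in con-in vitro against con gave log2 -1.38 without con-in vitro replicate 1 and log2 1.02 without con-in vitro replicate 2. The libraries left in or out lay far apart, with Cbx5 at 2.61 and 32.7 CPM in con and Suv39h2 at 262 and 49.7 CPM in con-in vitro. Why these libraries differ was not tested. Library totals in place of TMM moved the median of all genes most, to 1.70 in in vitro PSMPs against con-in vitro (TMM 0.71), 1.37 in SAHA against con-in vitro (TMM 0.66) and -0.49 in con-in vitro against con (TMM 0), so fold changes are relative to the bulk of genes.

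The number of all genes called changed with the settings as well. Fitted with only the compared groups, PSMPs & OE-Hdac3 called 2713 higher and 2854 lower against in vitro PSMPs (reported fit 309 and 499). Against in vivo PSMPs it called 3750 higher and 3722 lower (0 and 0). SAHA against con called 0 in either direction (3382 and 1129). With the in vivo PSMPs columns as 2 libraries, in vivo PSMPs against con called 3192 higher and 988 lower (769 and 48). The number of members called changed too. The reported fit called 0 in in vivo PSMPs against con, 1 in in vitro PSMPs against con-in vitro and 3 in SAHA against con. It called 1 in SAHA against con-in vitro, 1 in PSMPs & OE-Hdac3 against in vitro PSMPs and 2 in con-in vitro against con. In the difference between the PSMPs effects it called 1. Fits without 1 library left a lone library in a group, so their counts of members are not given. A lone library left in a group is assumed to vary like the other groups. With the in vivo PSMPs columns as 2 libraries the counts were 1 in in vivo PSMPs against con and 2 in in vitro PSMPs against con-in vitro, SAHA against con-in vitro and the difference. A minimum count of 50 gave 2 in these last 3 as well. No filter gave 0 in PSMPs & OE-Hdac3 against in vitro PSMPs and in the difference, where Setdb1 had adjusted p = 0.078. Library totals gave 2 in SAHA against con-in vitro and in PSMPs & OE-Hdac3 against in vitro PSMPs, and ended the call of Setdb1 in the difference (log2 -1.30, adjusted p = 0.175). DESeq2's Wald test gave 3 in in vitro PSMPs against con-in vitro, 2 in SAHA against con-in vitro, 4 in con-in vitro against con and 2 in the difference. With only the compared groups fitted the counts were 0 in in vitro PSMPs against con-in vitro, 0 in SAHA against con, 2 in SAHA against con-in vitro, 4 in PSMPs & OE-Hdac3 against in vitro PSMPs, 5 in PSMPs & OE-Hdac3 against in vivo PSMPs, 1 in con-in vitro against con and 0 in the difference (Setdb1 adjusted p = 0.282). The newer quasi-likelihood method gave 2 in in vivo PSMPs against con, 5 in SAHA against con and 2 in the difference. Calls over all genes rose in such settings too. The newer method called 4406 higher and 1792 lower in SAHA against con. DESeq2's Wald test called 3359 higher and 2512 lower in con-in vitro against con (reported fit 2452 and 1753). In in vitro PSMPs against con-in vitro it called 2666 and 1967 (1435 and 1135). Whether the members moved apart from all genes was not tested.

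The labels do not say whether libraries with the same replicate number belong together. Their deviations from the group means, over all genes in the fit, correlated at -0.060 to 0.057 between compared groups. Such values cannot show whether these libraries share an animal or a day. A replicate block was fitted with the in vivo PSMPs columns unmerged. It called 2 members in in vitro PSMPs against con-in vitro, in SAHA against con-in vitro and in the difference. These were Setdb1 and Cbx3 each time. The unmerged columns without a block gave the same 2 in each, so these calls cannot be put down to the block. Depth limits Cbx3, Ehmt2 and Suv39h1 most, since 3 counts correspond to 0.820 and 0.890 CPM in con-in vitro.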
